A study of Mus musculus with 11 samples.

Results

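Desquamation is the shedding of dead cells from the skin surface, and 10 genes of its protease system in the epidermis were followed here in inflamed mouse back skin. They were taken by symbol, as a list, from the 24411 genes in the deposited data: the kallikrein-related peptidases Klk5, Klk6, Klk7, Klk8, Klk10, Klk11 and Klk13, the kallikrein inhibitor Spink5, caspase-14 (Casp14) and the aspartic protease Asprv1. The rule that picks them uses symbols and no measured value, but the list was drawn up with earlier results of these data known. All 10 passed the filter on low counts, and the lowest count of any of them in any sample was 77.

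Total RNA was sequenced from 11 back skin samples of Tg(act-EGFP)Y01Osb hosts, a strain that carries an EGFP transgene driven by an actin promoter. Every host had been irradiated with 10 Gy and then given, through the tail vein, marrow cells sorted from the femurs of Pdgfra-Cre;tdTomato mice. In these donors Cre is driven by Pdgfra, and tdTomato marks cells that express Pdgfra or descend from cells that did. The donor cells were sorted as tdTomato-negative for 7 samples (called negative below) and as tdTomato-positive for 4 samples (called positive). Both groups recovered for 6 weeks and then had 6 topical applications of MC903 (calcipotriol), a vitamin D analog used to induce dermatitis resembling atopic dermatitis, and skin was collected on day 14. Both groups are thus irradiated, transplanted and MC903-treated, and no untreated skin was analysed here. The labels give an age of 16 to 18 with no unit for every sample. Keratinocytes are the cells known to make these proteases, and RNA of host and of donor cells was not told apart. The labels do not say whether the samples of a group came from separate animals. The p-values therefore reflect only how these samples scatter, which may be partly technical.

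As background, kallikreins are serine proteases that keratinocytes of the granular layer secrete as inactive precursors. In the extracellular space of the outermost epidermis they cut the corneodesmosome proteins that hold corneocytes together. KLK5 is trypsin-like and can activate itself and other kallikreins, KLK7 is chymotrypsin-like, and LEKTI, the product of Spink5, inhibits several of them at neutral pH and releases them as the surface turns acidic. Loss of LEKTI causes Netherton syndrome, with detached stratum corneum and allergic inflammation, and KLK5 can also activate the receptor PAR2 on keratinocytes. Caspase-14 and SASPase, the product of Asprv1, act at a parallel step, the processing of filaggrin in the cornified layer.

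The 7 member kallikreins lie side by side, which is why their chromosome order and promoters are given before their levels. In RefSeq on GRCm38.p6 all 7 are on the plus strand of chromosome 7, within 139 kb from 43712567 to 43851181. The order is Klk13, Klk12, Klk11, Klk10, Klk9, Klk8, Klk7, Klk6 and Klk5, so that 7 of the 9 kallikreins of this block are members. Spink5 lies on chromosome 18 from 43959545 to 44022487, Casp14 on the minus strand of chromosome 10 from 78711995 to 78718347, and Asprv1 on the plus strand of chromosome 6 from 86628174 to 86629710. No other RefSeq gene overlaps any member.

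Promoters are shown for the pair of members with the highest levels, Asprv1 and Klk7, and for Klk10 and Klk13. Klk10 is the kallikrein whose correlation with every other member was below 0 over the 11 samples. Klk13 lies at the other end of the block from Klk5. Each promoter is the 80 bases before the annotated start, from RefSeq on GRCm38.p6, plus strand, 5′ to 3′. Capitals mark a GC box, searched as GGGCGG on both strands, so that CCGCCC is the same motif on the other strand.

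Asprv1, chr6:86628094-86628173: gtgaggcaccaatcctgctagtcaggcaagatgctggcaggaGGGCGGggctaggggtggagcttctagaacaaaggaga
Klk7, chr7:43811214-43811293: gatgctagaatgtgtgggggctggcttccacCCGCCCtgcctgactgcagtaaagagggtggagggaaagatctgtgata
Klk10, chr7:43780974-43781053: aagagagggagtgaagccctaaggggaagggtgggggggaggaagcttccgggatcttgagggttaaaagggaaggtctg
Klk13, chr7:43712487-43712566: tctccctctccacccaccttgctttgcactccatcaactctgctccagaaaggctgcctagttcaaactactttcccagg

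The GC box begins at position -38 from the start in Asprv1 and at -49 in Klk7, and neither Klk10 nor Klk13 holds it in these 80 bases. Promoter sequences were matched for 9 members, with 11 annotated starts. Within 80 bases of the start the GC box was found at 4 of the 11 starts, against 22.1% of 32851 promoters of the same length. Within 250 bases it was found at 5 of the 11 starts, against 32.7% of all promoters. These starts belong to 4 of the 9 members (Klk6, Klk7, Klk8 and Asprv1). The TATA motif TATAAA and the AP-1 motif TGANTCA, both searched on both strands, were in none of the 9 members within 250 bases, where 12.4% and 6.75% of all promoters held them. These matches describe the letters of the windows only, and none of the 3 motifs contains another.

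The members differed widely in level. On the deposited TPM scale, which is per transcript length and so allows genes to be compared, Asprv1 was the most abundant member, with a mean of 1444 TPM ± 441 (SD, n = 11), and ranked 96 among all genes. Klk7 followed with 974 TPM ± 168 and rank 140. Asprv1 exceeded Klk7 in 11 of 11 samples, and Klk7 exceeded the next member, Klk6, in 11 of 11.

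Klk6, a trypsin-like kallikrein, had a mean of 432 TPM ± 126, Spink5 had 332 TPM ± 77.4 and Casp14 had 310.2 TPM ± 138 (SD, n = 11 each). Klk6 was above Spink5 in 10 of 11 samples. Spink5 and Casp14 are neighbours that their spread does not separate, with Spink5 higher in 7 of 11 samples. Klk10 (156 TPM ± 40.5) and Klk8 (127 TPM ± 49.8) form a second such pair, with Klk10 higher in 6 of 11 samples.

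Klk5, the trypsin-like kallikrein at the head of the activation cascade, was among the lower members, with 96.8 TPM ± 30.5 (SD, n = 11). It was not separated from Klk13 (81.0 TPM ± 24.4), being higher in 7 of 11 samples. Klk11, another trypsin-like kallikrein, was lowest in 11 of 11 samples, with 23.0 TPM ± 8.42, and ranked 5218 among all genes. The 10 members together made up between 0.237% and 0.510% of all TPM in negative samples and between 0.353% and 0.544% in positive samples.

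The kallikreins of the same stretch of chromosome 7 that are not members were mostly scarce. Klk9 averaged 110 TPM and ranged from 24.5 to 195 TPM, which places it among the members. Klk14, whose human counterpart is an active epidermal kallikrein, averaged 3.57 TPM, and Klk12 averaged 3.41 TPM. Klk4 (mean 0.183 TPM), Klk15 (0.17 TPM) and Klk1 (0.575 TPM) were listed at 0 in 3, 7 and 4 samples, and these 3 were too low to be tested. High expression therefore covered the stretch from Klk10 to Klk5 and, beyond Klk11 and Klk12, Klk13.

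**Figure D1:**
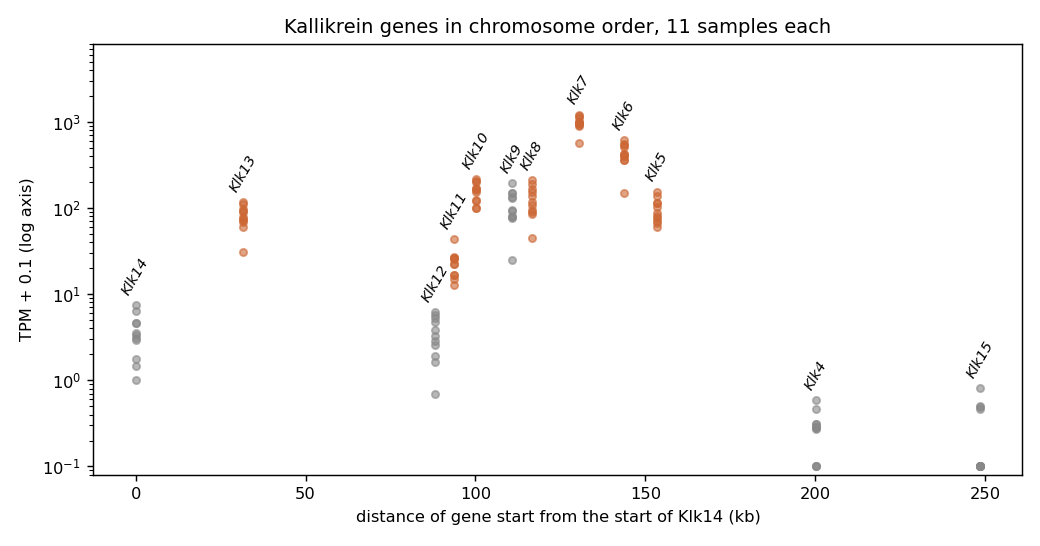
Level of the kallikrein genes in chromosome order, without Klk1: distance of the gene start from the start of Klk14 in kb (x axis) against TPM + 0.1 on a log axis (y axis), with 1 point per sample. Klk7 stands highest at 573 to 1209 TPM, and Klk4 and Klk15 lie at the bottom with samples at 0.

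In the comparison of positive with negative samples, which asks whether skin differs with the Pdgfra lineage of the donor marrow, none of the 10 members passed the test. In edgeR's quasi-likelihood test with Benjamini-Hochberg adjustment over the 14588 tested genes, 0% of all genes were called at an adjusted p of 0.05. The smallest adjusted p of any gene in that test was 0.248. DESeq2 called 0.569% and limma-voom 0% of all genes, and neither called a member. The groups overlapped in CPM for all 10 members, and 1.67% of all genes did not overlap. Fitted log2 fold changes were above 0 for 9 members and below 0 for Klk10, whereas 48.6% of all tested genes were above 0. At an unadjusted p of 0.05, where 16.8% of all genes were called, 1 member was called, Klk10. The median log2 fold change of the members was 0.25, and that of all tested genes was -0.01. In bulk skin, fewer cells of a type and less RNA per cell cannot be told apart.

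Values in the group comparison are CPM, that is, counts scaled to a common library size with TMM factors. Klk5 was 54.0, 77.4, 85.8 and 55.9 CPM in positive replicates 1 to 4. In negative samples it ran from 42.7 CPM in replicate 3 through a median of 51.7 to 96.3 CPM in replicate 7. The groups overlapped, since the highest Klk5 value of all was a negative sample. By edgeR the fitted log2 fold change was 0.18 ± 0.23 (SE), with a 95% interval of -0.31 to 0.67 and an adjusted p of 0.697.

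Klk6 was 378, 402, 385 and 253 CPM in positive replicates 1 to 4. In negative samples it ran from 119 CPM in replicate 3 through a median of 304 to 435 CPM in replicate 1. Positive replicate 4 stood well below the other 3 positive samples, and both the lowest and the highest value were negative samples. Klk6 had a log2 fold change of 0.29 ± 0.26 (SE) and an adjusted p of 0.570 (edgeR).

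Klk7, which cuts corneodesmosin and desmocollin 1, was 980, 1103, 1131 and 917 CPM in positive replicates 1 to 4. For the 7 negative samples it ran from 609 CPM in replicate 3 through a median of 902 to 1109 CPM in replicate 1. It was the steadiest kallikrein, with a 1.86-fold distance between the lowest and the highest sample. The fitted log2 fold change was 0.18 ± 0.14 (SE), with a 95% interval of -0.12 to 0.48 and an adjusted p of 0.513 (edgeR).

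Klk8, a trypsin-like kallikrein also known as neuropsin, was 111, 120, 128 and 79.6 CPM in positive replicates 1 to 4. Among negative samples it ran from 34.0 CPM in replicate 3 through a median of 69.8 to 142 CPM in replicate 7. All 4 positive values lay above the negative median, and negative replicate 7 lay above them all. Klk8 had the highest fitted value of the members, with a log2 fold change of 0.50 ± 0.29 (SE), a 95% interval of -0.13 to 1.14 and an adjusted p of 0.383 (edgeR). With limma-voom and sample quality weights, which called 14.3% of all genes, Klk8 had a log2 fold change of 0.70 and an adjusted p of 0.0395 and was the only member called.

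Klk10, a kallikrein-related peptidase of the granular layer, was the member with lower values in positive samples. It was 90.5, 92.4, 117 and 70.9 CPM in positive replicates 1 to 4. Its negative samples extended from 69.9 CPM in replicate 7 through a median of 126 to 170 CPM in replicate 3. None of the 4 positive values exceeded the negative median, but the lowest value of all was a negative sample. By edgeR the fitted log2 fold change was -0.45 ± 0.20 (SE), with a 95% interval of -0.90 to -0.01, an unadjusted p of 0.0465 and an adjusted p of 0.293.

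Klk11 was 15.7, 18.5, 17.6 and 17.4 CPM in positive replicates 1 to 4. Values in negative samples went from 9.18 CPM in replicate 6 through a median of 11.8 to 28.6 CPM in replicate 7. The positive samples lay close together, and the negative samples surrounded them on both sides. Klk11 had a log2 fold change of 0.21 ± 0.26 (SE) and an adjusted p of 0.689 (edgeR).

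Klk13 was 59.3, 49.7, 48.9 and 34.8 CPM in positive replicates 1 to 4. In the negative group values ran from 17.5 CPM in replicate 3 through a median of 40.4 to 58.2 CPM in replicate 7. Only positive replicate 1 exceeded the highest negative sample, and that by a small margin. By edgeR the fitted log2 fold change was 0.31 ± 0.25 (SE), with an adjusted p of 0.532.

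Spink5 was 1262, 1019, 1316 and 873 CPM in positive replicates 1 to 4. Spink5 values of negative samples spread from 639 CPM in replicate 3 through a median of 851 to 1165 CPM in replicate 1. All 4 positive values were above the negative median, and positive replicates 1 and 3 were above every negative sample. By edgeR the fitted log2 fold change was 0.34 ± 0.15 (SE), with an unadjusted p of 0.0502 and an adjusted p of 0.297.

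Casp14 was 420, 644, 490 and 491 CPM in positive replicates 1 to 4. Across negative samples it ran from 141 CPM in replicate 3 through a median of 284 to 737 CPM in replicate 7, a 5.21-fold distance and the widest of the 10 members. Its positive samples all lay above the negative median and inside the negative range. By edgeR the fitted log2 fold change was 0.49 ± 0.35 (SE), with a 95% interval of -0.26 to 1.24 and an adjusted p of 0.468. Without negative replicate 7 the fitted value was 0.76, and it was 0.35 without negative replicate 3.

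Asprv1 was 1001, 1572, 1778 and 922 CPM in positive replicates 1 to 4. Negative values extended from 898 CPM in replicate 3 through a median of 965 to 1611 CPM in replicate 1. The positive samples fell into a high pair and a low pair, the latter within the lower part of the negative range. By edgeR the fitted log2 fold change was 0.19 ± 0.22 (SE), with an adjusted p of 0.670, and without positive replicate 3 it was 0.02.

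**Figure D2:**
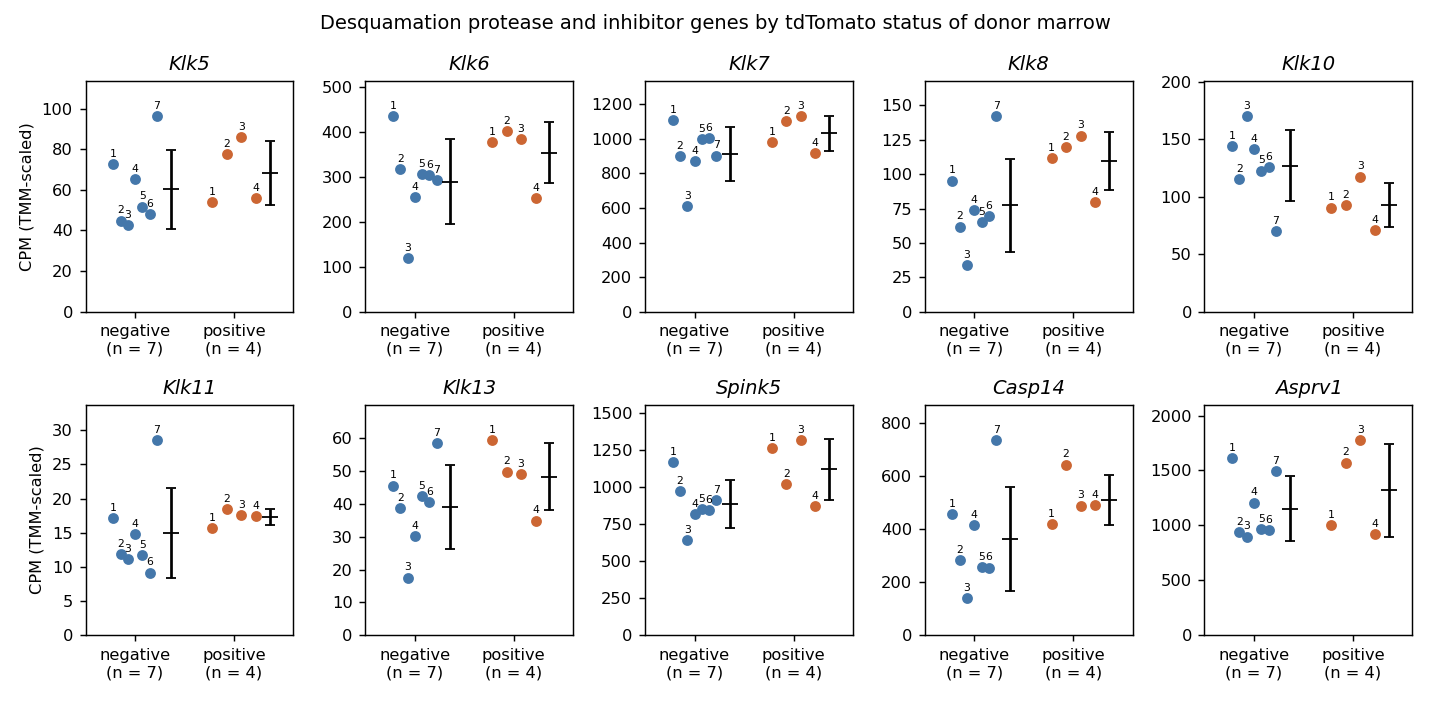
CPM of the 10 genes in each sample (y axes, each from 0) by group (x axis), with 1 point per sample and the group mean with its SD. The groups overlap for every gene, and Klk10 has its mean lower in positive samples (92.8 against 127 CPM).

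The ratio of protease to inhibitor was compared on the TPM scale, where a ratio within a sample does not depend on scaling between samples. Klk5 to Spink5 was 0.192, 0.339, 0.290 and 0.287 in positive replicates 1 to 4. In negative samples it ran from 0.206 in replicate 2 through a median of 0.276 to 0.469 in replicate 7. The mean log2 ratio was -1.88 ± 0.35 (SD, n = 4) in positive and -1.76 ± 0.38 (SD, n = 7) in negative samples, a difference of -0.12 that is smaller than either spread.

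Klk7 transcripts outnumbered Spink5 transcripts in every sample. Klk7 to Spink5 was 2.32, 3.23, 2.56 and 3.14 in positive replicates 1 to 4. In negative samples it ran from 2.75 through a median of 2.94 to 3.57. The mean log2 ratio was 1.48 ± 0.23 (SD, n = 4) in positive and 1.62 ± 0.16 (SD, n = 7) in negative samples, a difference of -0.14. No test was run on these ratios. The Klk5 difference was 0.04 without positive replicate 1, in which Spink5 was high and Klk5 was low.

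Samples stood apart in several members at once. Negative replicate 3 was the lowest sample for 8 of the 10 members and the highest for Klk10. Negative replicate 7 was the highest sample for 4 members and the lowest for Klk10. Without negative replicate 3 the median log2 fold change of the members was 0.15, with Klk6 at 0.15 and Klk7 at 0.10. Without negative replicate 7 the log2 fold change was 0.46 for Klk11 and 0.34 for Klk5, and without positive replicate 3 it was 0.06 for Klk5.

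The members other than Klk10 varied together. Over the 11 samples Pearson's r of log2 CPM was above 0 for all 36 pairs of the other 9 members, from 0.28 to 0.96 with a median of 0.74. Of these pairs 21 had a permutation p under 0.05 after Benjamini-Hochberg adjustment over the 45 member pairs. Klk10 was set apart for its r in these same samples, and with it 22 of the 45 pairs passed. The share that passes among pairs of other genes was not computed, so these counts are not set against a background. Within the 7 negative samples all 36 pairs were again above 0, and 9 passed by adjusted exact permutation p. Those 7 samples lie on both sides of the gap in the hair follicle score described below. Within the 6 samples on its high side, of both groups, 35 of the 36 pairs were above 0, with a median r of 0.61. None passed there, the lowest adjusted exact permutation p being 0.219. Over the 11 samples all 9 pairs with Klk10 were below 0, from -0.71 to -0.10, and 1 of them passed, that with Casp14. Without the 2 samples farthest from the median of a pair's first gene, 2 of the 9 were above 0. These were the pairs with Klk6 (r 0.03) and with Klk7 (r 0.24).

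The closest pair was Klk6 with Klk7, neighbours on the chromosome. Its r was 0.96 and its Spearman's rho 0.79, with adjusted permutation p of 0.00285 and 0.0246. It was 0.81 without negative replicates 1 and 3, the 2 samples farthest from the median of Klk6, and 0.97 within the 7 negative samples. Klk6 also followed Spink5, with r 0.86 and rho 0.83 (adjusted permutation p 0.00285 and 0.0155), and r was 0.81 without the same 2 samples. Transcripts of this trypsin-like protease and of the inhibitor thus moved in the same direction from sample to sample.

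Klk8 with Casp14, which lie on different chromosomes, had r 0.93 and rho 0.88 (adjusted permutation p 0.0009 and 0.0051). The r was 0.80 without negative replicates 3 and 7 and 0.97 within the negative samples. Klk5 with Asprv1 had r 0.92 and rho 0.85 (adjusted permutation p 0.00285 and 0.0116), and 0.92 again without the 2 farthest samples. Klk5 and Spink5, protease and inhibitor, had r 0.50 with an adjusted permutation p of 0.147, which did not pass.

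Some relations rested on 2 samples. Klk7 with Klk8 had r 0.76 over 11 samples and 0.25 without negative replicate 3 and positive replicate 3. Klk7 with Klk13 had r 0.81 and then 0.39. The inverse relation of Klk10 with Casp14 had r -0.71 and rho -0.71 (adjusted permutation p 0.0295 and 0.0609), of which only r passed. It was -0.63 without negative replicate 7 and positive replicate 4, and -0.72 within the 7 negative samples with an adjusted exact permutation p of 0.152.

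**Figure D3:**
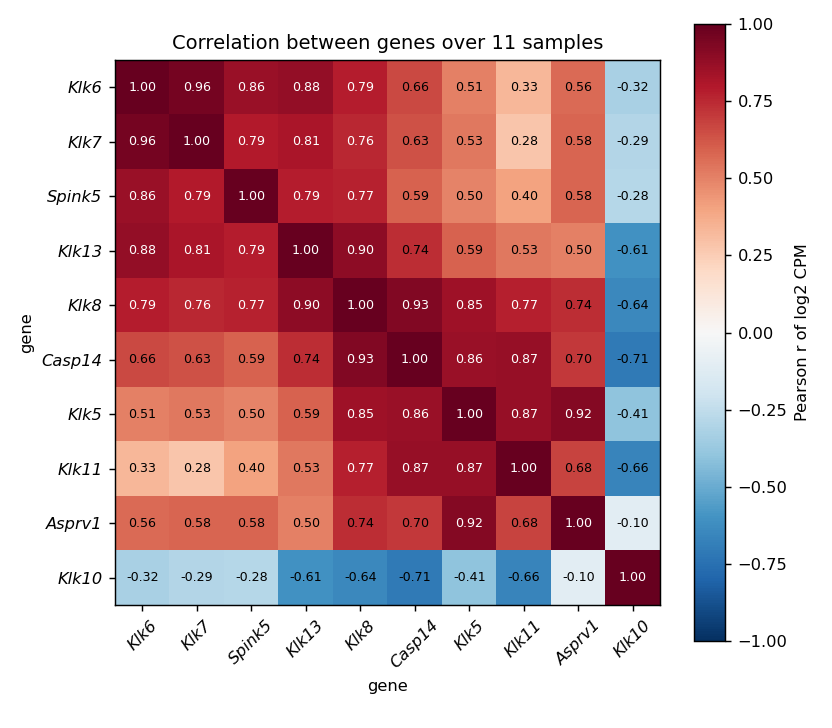
Pearson's r of log2 CPM over 11 samples for each pair of the 10 genes (both axes list the genes, the color gives r). Klk10 is the row and column with values below 0 throughout, and Klk6 with Klk7 is the strongest pair at 0.96.

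Genes outside the list that followed a member most closely were named by r of log2 CPM over the 11 samples. They were picked for the largest r among the tested genes, a choice that by itself yields high r, and were not tested. For Klk7 they were Il13ra2, a receptor of interleukin 13 (r 0.94, with means of only 4.2 TPM in positive and 3.7 TPM in negative samples), Stfa3, a stefin (0.93), and Il1f8, an interleukin 36 cytokine (0.92). For Spink5 they were Ginm1 (0.97), the proton channel Hvcn1 (0.96) and the late cornified envelope gene Lce3d (0.94). For Casp14 they were Mfsd7c (0.96), the adhesion molecule Esam (0.96) and the ceramidase Asah2 (0.96).

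Marker genes of skin compartments were read beside the members, because bulk skin holds several cell types. The basal keratins Krt5 and Krt14 and the suprabasal keratins Krt1 and Krt10 were present in every sample, at 2349 to 3553, 3147 to 12335, 1019 to 7833 and 696 to 5459 TPM, so the tissue label and its markers match. A score, the mean z-score of log2 CPM over a marker list, was computed for each list.

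The hair follicle list had 15 of 15 genes with log2 fold changes below 0 and a median of -2.32, and 0 of them passed the adjusted test. The summed TPM of its genes ran from 318 to 8991 in positive and from 206 to 26554 in negative samples, and no gene of the list was at 0 in any sample. The score left a gap around 0: 5 negative samples and positive replicate 4 lay above it (0.475 or more), and negative replicates 1 and 7 and positive replicates 1, 2 and 3 lay below it (-0.476 or less). The split cuts across the labels and is a property of these samples, not a group of the study.

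Klk8 ran from 34.0 to 79.6 CPM in the 6 samples with hair scores above 0 and from 95.3 to 142 CPM in the 5 samples below 0. In those 5, the negative samples held 95.3 and 142 CPM and the positive samples 111 to 128 CPM. Klk13 likewise ran from 17.5 to 42.3 CPM above 0 and from 45.4 to 59.3 CPM below 0. The ranges on the 2 sides did not overlap for these 2 of the 10 members, against 12.5% of all tested genes. Klk9, not a member, separated in the same way, at 21.4 to 79.2 and 107 to 150 CPM.

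The other members overlapped between the sides. Casp14 ran from 141 to 491 CPM above 0 and from 420 to 737 CPM below 0, Spink5 from 639 to 973 and from 911 to 1316 CPM, and Klk7 from 609 to 1005 and from 902 to 1131 CPM. Klk10 ran from 70.9 to 170 CPM above 0 and from 69.9 to 144 CPM below 0. Because the scores fall on 2 sides of a gap, no r with the hair score is given over all 11 samples. Within the 6 samples above 0 no member passed. The smallest p there were those of Casp14 and Klk10: Casp14 had r -0.93 with the hair score and Klk10 r 0.91, with exact permutation p of 0.0153 and 0.0319, and adjusted p over the 50 relations of 0.153 and 0.228.

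**Figure D4:**
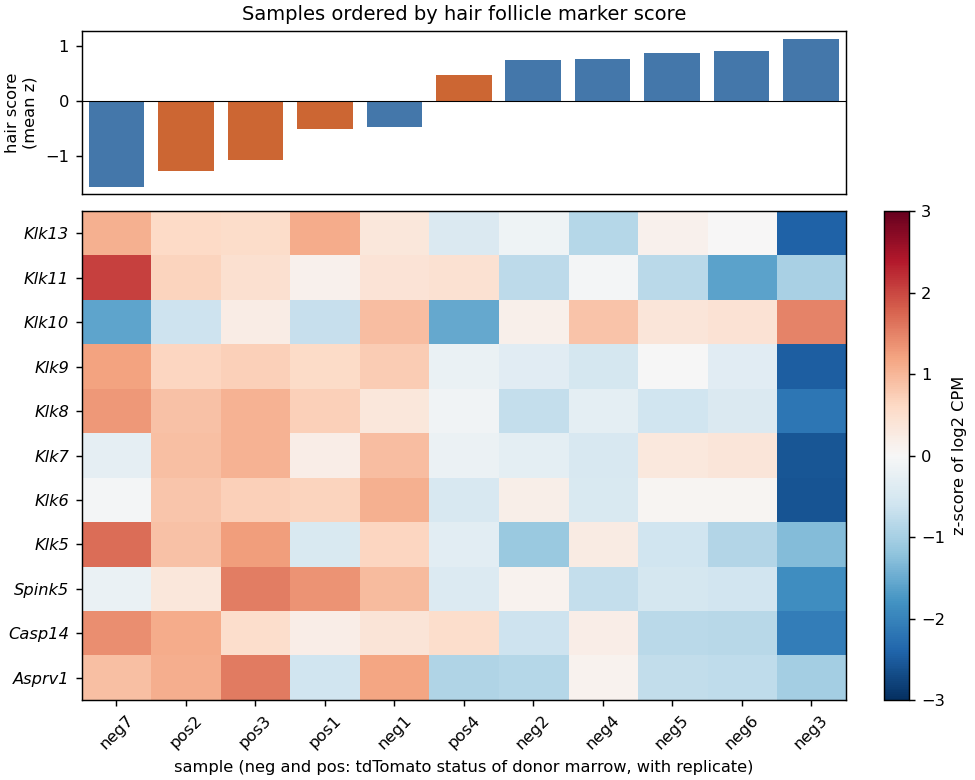
Hair score of each sample (bars, mean z-score of 15 marker genes, colored by group) above the z-score of log2 CPM of each gene (color) in the same samples, ordered by hair score. Klk8 and Klk13 are higher in all 5 samples with scores below 0, of both groups, than in the other 6.

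When the hair score was added to the edgeR fit, 6 members were above 0 and 4 below, beside 7226 of all 14588 genes above 0. The median log2 fold change of the members was 0.03. Klk8 then had a log2 fold change of 0.11, Casp14 0.15, Spink5 0.18 and Klk10 -0.29, and the smallest adjusted p of any member was 0.720. A fit added after these values were seen was limited to the 2 negative and 3 positive samples with scores below 0. In it 5 members were above 0 and 5 below, beside 7657 of all 14615 genes above 0. The median of the members there was -0.03, with Klk8 at 0.03 and Spink5 at 0.22. An unadjusted edgeR p under 0.05 was found for 0 members and for 391 of the 14615 genes.

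**Figure D5:**
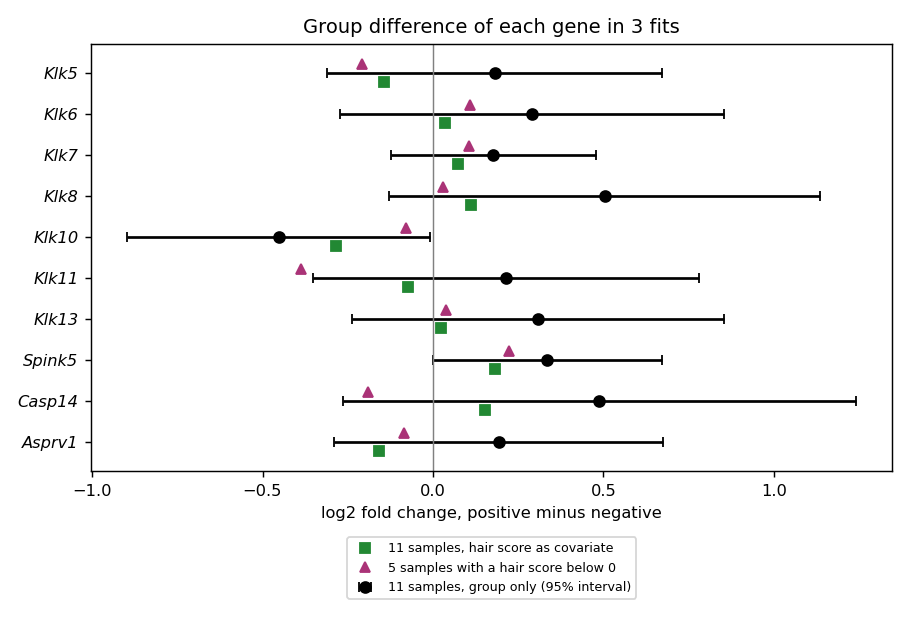
Log2 fold change of each gene, positive minus negative (x axis), for each of the 10 genes (y axis), with all 11 samples and its 95% interval, with the hair score as covariate, and in the 5 samples with hair scores below 0. With the hair score in the fit the values lie between -0.29 and 0.18, closer to 0 than the span of -0.45 to 0.50 without it.

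The basal score was higher in the 5 samples with low hair scores (0.26 to 1.32) than in the other 6 (-1.12 to -0.12). Klk8 had r 0.93 and rho 0.95 with the basal score (adjusted permutation p of r 0.0015). In all 6 members passed, among them Klk5 (r 0.86, rho 0.87, adjusted permutation p of r 0.00535). The basal score separates the same samples as the hair score, so these r over 11 samples run across that gap. Within the 6 samples with hair scores above 0, Klk8 had r 0.79 and Klk5 r 0.74 with the basal score (adjusted exact permutation p 0.309 and 0.336). No member passed there, and the smallest adjusted exact permutation p was 0.228, of Casp14. The suprabasal score passed with 3 members, Klk5 (r 0.92, rho 0.94, adjusted permutation p of r 0.0015), Asprv1 (r 0.85, rho 0.82, adjusted permutation p of r 0.00535) and Klk11 (r 0.76, rho 0.80, adjusted permutation p of r 0.0166). Without negative replicate 7 and positive replicate 3 their r was 0.87, 0.81 and 0.69. Within the 6 samples with hair scores above 0 their r was 0.89, 0.85 and 0.60. None of these 3 passed there (adjusted exact permutation p 0.153, 0.387 and 0.523). The share of all genes that passes with these scores was not computed.

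Klk6 and Klk7 had r of only 0.29 and 0.33 with the suprabasal score, and whether these differ from the r of Klk5 was not tested. Klk13 followed the score of stressed epidermis, made of Krt6a, Krt6b, Krt16, Krt17, S100a8 and S100a9, with r 0.84 and rho 0.68. The adjusted permutation p were 0.0106 and 0.0592, so that only r passed. This r was 0.46 without negative replicate 3 and positive replicate 1. Cyp24a1, the vitamin D response gene that MC903 is known to induce, followed none of the members, with r from -0.28 to 0.24. Summed TPM ran from 10141 to 16437 in positive and from 6174 to 16903 in negative samples for the basal list, from 11950 to 24783 and from 6581 to 20979 for the suprabasal list, in which Krt2 was at 0 in a sample, and from 9914 to 20869 and from 4704 to 18645 for the stressed list. The part of these layers in the group values of the members was not tested beyond the fits shown here.

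Marker lists of other cell types are given by their signs, beside the 48.6% of all tested genes above 0 and their median of -0.01. All 7 macrophage markers were above 0 with a median log2 fold change of 0.59, as were 4 of 4 neutrophil markers (1.16), 5 of 5 T cell markers (0.48), 6 of 6 fibroblast markers (0.34), 5 of 5 endothelial markers (0.45), 5 of 5 adipocyte markers (0.60) and 5 of 5 skeletal muscle markers (0.38). All 5 melanocyte markers were below 0 (-1.58). Basal markers were above 0 in 6 of 6 (0.11), suprabasal markers in 6 of 9 (0.17), stressed epidermis markers in 5 of 6 (0.50) and sebaceous markers in 4 of 7 (0.02). None of these genes passed the adjusted edgeR test. Summed TPM of the macrophage list ran from 753 to 2024 in positive and from 663 to 1125 in negative samples, and its part in the values of the members was not tested.

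The wider protease network, 40 genes listed by role, had 35 tested members and none called after adjustment. At an unadjusted p of 0.05, 1 was called higher and 6 lower, against 7.05% and 9.73% of all genes. The other kallikreins gave 3 tested genes, all above 0 and none called, with Klk9 at a log2 fold change of 0.34 and an adjusted p of 0.657 (edgeR).

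Among 8 other serine proteases, 3 had unadjusted p under 0.05, all lower in positive samples, and 3 of the 8 had log2 fold changes above 0, including the membrane-anchored Tmprss4 at 0.38. St14, which encodes matriptase, an activator of kallikrein precursors, was 69.3 CPM ± 25.5 (SD, n = 4) in positive and 127 CPM ± 42.8 (SD, n = 7) in negative samples, a log2 fold change of -0.87 ± 0.29 (SE) with an adjusted p of 0.248 (edgeR). Tmprss11e, a relative of matriptase, was 33.6 and 58.2 CPM. Prss8, the prostasin that acts with matriptase, was 41.0 and 58.0 CPM.

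Of 7 tested inhibitors 2 had unadjusted p under 0.05 and lower values in positive samples, Spint1 and Spint2, which encode the matriptase inhibitors HAI-1 and HAI-2. Spint1 was 49.5 CPM in positive and 72.9 CPM in negative samples, and Spint2 was 89.1 and 115 CPM, with edgeR adjusted p of 0.256 and 0.248. Groups overlapped for both, as for the 3 proteases.

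Among 11 tested substrates and receptors only Padi1, which citrullinates keratins and filaggrin, had an unadjusted p under 0.05, at 15.2 CPM ± 16.2 in positive (SD, n = 4) and 87.9 CPM ± 62.8 in negative samples (SD, n = 7). Of 6 cysteine and aspartic proteases only Ctsh, cathepsin H, was higher at that level, with 166 and 129 CPM. The 2 samples with the lowest hair scores among the negatives again sat apart: Padi1 was 10.9 and 6.38 CPM in negative replicates 1 and 7 and 187 CPM in negative replicate 3.

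St14 ran from 107 to 187 CPM in the 6 samples with hair scores above 0 and from 51.8 to 76.7 CPM in the 5 below, with no overlap, as 12.5% of all tested genes. Spint1 ran from 64.8 to 97.5 and from 39.9 to 52.0 CPM, and Padi1 from 39.3 to 187 and from 4.47 to 10.9 CPM, also without overlap. The sides overlapped for Prss8 (34.2 to 77.2 and 34.4 to 54.2 CPM), Tmprss11e (38.6 to 74.8 and 24.5 to 38.9 CPM), Spint2 (83.5 to 137 and 79.01 to 115 CPM) and Ctsh (107 to 144 and 129 to 197 CPM). In the fit with the hair score the log2 fold change was -0.35 for St14, -0.18 for Spint1, -0.31 for Spint2 and -0.66 for Padi1, and the smallest edgeR adjusted p among all genes was 0.629.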

How the data were processed

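Total RNA of 11 back skin samples (7 negative, 4 positive) was analysed. Per the submitters' processing notes, bcl2fastq, Trim Galore, RSEM and GRCm38 were used. For versions, aligner and strandedness, nothing is given in the sources used here. The authors deposited expected counts, which are RSEM estimates per gene, not normalized, with totals of 7190752 to 9749842 per sample. Between 7.93% and 8.52% of genes were further than 0.005 from a whole number, and none of the member values were. The authors also deposited TPM, relative to effective length. The effective lengths deposited by the authors, a further column of the same tables, were used for an offset.

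Expected counts were rounded, and 14588 of 24411 genes passed filterByExpr (minimum count 10, minimum total 15). CPM use TMM-scaled totals. The test was edgeR 4.0.16 glmQLFit (legacy mode) and glmQLFTest, group as the only term, with Benjamini-Hochberg adjustment over all tested genes and a threshold of 0.05 (R 4.3.3). Standard errors come from the F value, and intervals hold 95%. The script was tested on simulated counts. No pair of libraries of the same group agreed within sampling noise, the lowest chi-square per degree of freedom being 3.43. Pairs across the groups were not compared in this way.

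Correlations used 100000 permutations over 11 samples, and exact permutations over 6 or 7. The members, lists and rules were chosen with earlier results of these data known. All members were named, and pathway genes with an unadjusted p under 0.05, at most 8 per list, as were the 3 genes most like Klk7, Spink5 and Casp14. Klk9 and further kallikreins were named after their values were seen, as neighbours of the members. Flg, A2ml1, Ly6g and Trac had no row of that symbol and were not used here. Alternatives were DESeq2 1.42.0, limma 3.58.1 (voom, with and without quality weights), other scalings and filters, log2(TPM + 1), effective-length offsets, covariates, each sample left out in turn, and a replicate block.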

Additional observations from a re-analysis of the deposited data

Results flagged for a closer look

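Klk6 in positive replicate 4 was 253 CPM, while the other 3 positive samples held 378 to 402 CPM. The gap was 0.837 of the range of the group, which passes Dixon's 95% critical value for 4 samples. Klk11 in negative replicate 7 was 28.6 CPM, while the other 6 negative samples held 9.18 to 17.1 CPM, a gap of 0.591 of the range. These are 2 of 24 sets of values examined, and chance passes this limit in about 1 of 20 sets.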

How the results depend on the processing

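Of 280 member values under 28 alternatives, 272 kept their direction and their side of the threshold. DESeq2 called 83 genes, and limma-voom with quality weights called 2093 genes, 1 member (Klk8) and 8 genes of the other protease lists. Leaving out 1 sample gave 0 to 3 genes called, with 1 without negative replicate 4 and 3 without negative replicate 7, and members called stayed at 0. With the hair score as covariate the log2 fold change turned to -0.14 for Klk5, -0.074 for Klk11 and -0.16 for Asprv1. In the 5 samples with hair scores below 0, an alternative chosen after seeing the data, it turned to -0.21 for Klk5, -0.39 for Klk11, -0.19 for Casp14, -0.084 for Asprv1 and -0.025 for the median of the members. That fit has fewer samples. The cause of the other changes was not tested.

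Same-numbered samples did not deviate together: over 4 pairs r ran from -0.14 to 0.338, and 0 of the 4 positive samples correlated best with their own number. With the replicate block 0 genes and 0 members were called, and the median log2 fold change of the members was 0.34. Depth did not limit the members, with 77 or more counts in every sample, whereas Klk1, Klk4 and Klk15 were too low to be compared.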
